A study of Homo sapiens with 6 samples.

Results

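The MHC class I presentation genes were examined in MV4-11 cells with and without WNK463. They were the 9 genes HLA-B, HLA-C, HLA-E, HLA-F, B2M, TAP1, TAP2, TAPBP and NLRC5, matched by symbol in a deposited table of 20348 genes. All 9 were found and all 9 passed the filter on low counts, as did 11973 genes in all. MV4-11 is an established human acute myeloid leukemia (AML) cell line that carries a KMT2A fusion and an internal tandem duplication of FLT3. WNK463 is a small molecule that inhibits the WNK kinases, which control ion transport and cell volume. RNA-seq of bead-captured mRNA was made from 3 untreated samples (Ctrl) and 3 samples treated with 1 μM WNK463, both collected at 48 h. The labels name no vehicle for Ctrl and do not state whether the 3 samples of a group were separate cultures, so p-values measure the spread between these samples, which may be technical. All results are from a single cell line at a single dose and time.

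MHC class I molecules carry short peptides from the inside of the cell to its surface, where CD8 T cells and natural killer (NK) cells read them. Each molecule is a heavy chain, such as HLA-B or HLA-C, bound to the light chain β2-microglobulin, encoded by B2M. The proteasome cuts proteins to peptides, the TAP1-TAP2 transporter pumps these into the endoplasmic reticulum, and tapasin, encoded by TAPBP, holds the empty heavy chain at the transporter until a peptide binds. HLA-E presents leader peptides of other class I molecules to NK cell receptors, and HLA-F is a non-classical class I molecule. NLRC5 is the transactivator of class I genes and acts at their promoters with RFX, CREB and NF-Y proteins, while interferons and NF-kB drive the same genes through elements nearby.

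The promoters are shown because matches to these elements occur near each other in them, though not every element occurs in every gene. Of the 9 members, 7 matched the RefSeq promoter table (GRCh38.p14), whose windows hold 300 bases, 250 before to 50 after a start site. The stretches printed are parts of these windows, of 45 to 178 bases, that run from just before the first motif match to just after the last. Capitals mark matches on either strand to any of 5 motifs, which were chosen after the sequences were seen. These were the interferon-stimulated response element in a long form (GAAA, any 2 bases, GAAA) and a short form (GAA, any 2 bases, GAAA), the NF-kB consensus, the class I form of the Y box, GCCAATCAG, to which NF-Y binds, and TGACG, the core of the X2 box, to which CREB proteins bind. Matches of the first and second motif can overlap.
HLA-B, chr6:31357222-31357362, minus strand: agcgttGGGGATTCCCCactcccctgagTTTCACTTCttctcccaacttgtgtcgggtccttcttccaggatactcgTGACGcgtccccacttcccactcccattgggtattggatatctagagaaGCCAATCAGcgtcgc
HLA-C, chr6:31272135-31272270, minus strand: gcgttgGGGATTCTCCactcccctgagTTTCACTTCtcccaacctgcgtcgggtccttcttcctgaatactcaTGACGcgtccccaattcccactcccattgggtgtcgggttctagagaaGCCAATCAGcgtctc
HLA-F, chr6:29723272-29723390, plus strand: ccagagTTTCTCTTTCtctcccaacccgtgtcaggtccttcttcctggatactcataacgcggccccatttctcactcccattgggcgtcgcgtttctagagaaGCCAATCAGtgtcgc
B2M, chr15:44711367-44711479, plus strand: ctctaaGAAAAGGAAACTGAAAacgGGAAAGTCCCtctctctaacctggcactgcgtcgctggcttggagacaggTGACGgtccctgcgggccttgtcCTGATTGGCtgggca
TAP1, chr6:32853667-32853844, minus strand: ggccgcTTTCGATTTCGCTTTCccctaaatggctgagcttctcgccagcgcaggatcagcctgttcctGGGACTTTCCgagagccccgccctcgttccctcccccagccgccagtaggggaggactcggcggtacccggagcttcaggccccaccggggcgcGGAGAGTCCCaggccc
TAP2, chr6:32838764-32838808, minus strand: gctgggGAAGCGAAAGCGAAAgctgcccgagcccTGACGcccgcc
TAPBP, chr6:33314077-33314140, minus strand: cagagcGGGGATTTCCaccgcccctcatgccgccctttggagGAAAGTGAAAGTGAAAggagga

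Each of the 7 genes held a form of the interferon-stimulated response element, with both forms chosen after the sequences were seen. The share of all windows that hold either form was not computed. The long form was present in 5 of them, against 3.57% of all 35116 promoter windows of the same length, and the short form in HLA-B, HLA-C and TAP2, against 7.66% of all windows. In TAP2 both forms overlap. The class I Y box stood in HLA-B, HLA-C, HLA-F and B2M, against 1.9% of all windows, and began between 58 and 52 bases before the start site. The NF-kB consensus was found in 5 of the 7 genes against 5.91% of all windows, and TGACG in 4 against 24.6%. TAP1 has a second window in the table, which held none of the motifs. A match is a description of these letters and not a measured binding site.

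Total counts per sample ranged from 14915745 to 17411780. Levels are given as CPM, a count scaled to a TMM-normalized library of 1000000 counts. A gene passed edgeR's quasi-likelihood test at a Benjamini-Hochberg adjusted p below 0.05 over all 11973 tested genes. At this threshold 70.8% of all tested genes passed, 35.5% higher and 35.3% lower, so passing alone does not set a gene apart in these data. With a log2 fold change of 1 or more in either direction also required, 15.2% passed, 9.62% higher and 5.55% lower. Of the 20 listed markers of T, B, NK, erythroid, epithelial and fibroblast cells, 19 were below 1 CPM in every sample, and the other, PAX5, reached 2.05 CPM. Of 10 markers of myeloid leukemia cells, 5 were higher (ITGAM 1.25, CSF1R 0.97, HOXA9 0.72, MEIS1 0.33 and CEBPA 0.18 on the log2 scale), 4 were lower (MPO -2.50, LYZ -2.22, CD33 -0.38 and FLT3 -0.20), and SPI1 did not pass. LYZ, which encodes lysozyme, fell from 1355 ± 43.7 to 291 ± 11.6 CPM (SD, n = 3 each). The part of these marker changes in the results on the class I genes was not tested. In these bulk samples, fewer cells of a type and less RNA per cell cannot be told apart.

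Of the 9 members, 6 were higher after WNK463, 1 was lower and 2 did not pass. Among all tested genes, 35.5% were higher and 35.3% lower. The higher genes were HLA-E, B2M, HLA-B, TAP1, TAPBP and HLA-C, and the lower gene was TAP2. The median log2 fold change of the 9 members was 0.21, against 0.02 for all tested genes. The 3 values of each group did not overlap in 8 of the 9 members, and this held for 73.5% of all tested genes. With the limit on the fold change, HLA-E was higher and TAP2 was lower. Summed over the 9 genes, the members had between 2281 and 2379 CPM in the Ctrl samples and between 3369 and 3483 CPM in the WNK463 samples. Most of this rise lay in B2M (mean 761 CPM in Ctrl and 1116 CPM with WNK463), HLA-B (771 and 1114) and HLA-E (348 and 710). The other members changed the sum little, and TAP2 fell from 65.5 to 32.4 CPM.

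**Figure D1:**
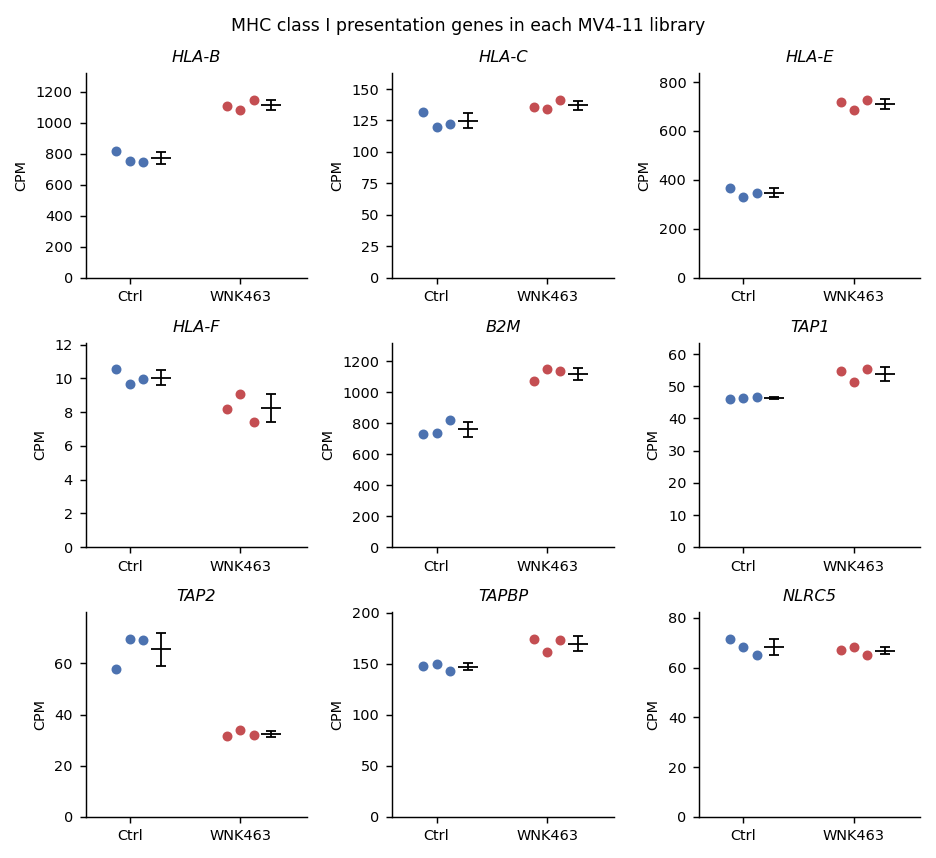
Level of each of the 9 genes in CPM (y axis, starting at 0) in the 3 Ctrl (blue) and 3 WNK463 (red) samples; points are samples, and black bars show the mean and SD. HLA-E, B2M and HLA-B lie clearly higher with WNK463, TAP2 lies lower, and the values of NLRC5 overlap.

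HLA-E showed the largest rise of the members. Its levels were 366, 331 and 346 CPM in the Ctrl samples and 719, 685 and 727 CPM in the WNK463 samples. All 3 treated samples lay far above the untreated ones. The log2 fold change was 1.03 ± 0.05 (standard error, SE, edgeR adjusted p = 3.2e-12), which put the treated level at 204% of Ctrl.

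HLA-B, a classical heavy chain, was the most abundant heavy chain of the members. It had 816, 752 and 744 CPM in Ctrl and 1108, 1084 and 1148 CPM with WNK463, so the groups were far apart. The log2 fold change was 0.53 ± 0.05 (SE, edgeR adjusted p = 1.6e-08), or 144% of Ctrl. HLA-B had a log2 fold change of at least 0.5, as did 21.8% of all tested genes.

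HLA-C is the other classical heavy chain of the list. Its values were 131, 120.2 and 123 CPM in Ctrl against 136, 134 and 141 CPM with WNK463. The groups did not overlap, but the gap between them was small. The log2 fold change was 0.14 ± 0.05 (SE, edgeR adjusted p = 0.027), with a 95% confidence interval from 0.03 to 0.25. The call was lost without Ctrl replicate 2 (adjusted p = 0.18), Ctrl replicate 3 (0.10), WNK463 replicate 1 (0.055) or WNK463 replicate 3 (0.13), and with DESeq2 (0.061). In GENCODE 29 the annotated span of HLA-B (chr6:31269491-31357188) covers most of the HLA-C gene (chr6:31268749-31272130) on the same strand, and the heavy chain genes are close paralogs, so counts of HLA-B and HLA-C depend on how shared reads were split.

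HLA-F was the least abundant member by TPM. It had 10.5, 9.67 and 9.94 CPM in Ctrl and 8.21, 9.07 and 7.41 CPM with WNK463. All 3 treated values were below the untreated ones, but the log2 fold change of -0.29 did not pass (SE 0.13, edgeR adjusted p = 0.051). Its counts were between 116 and 173 per sample. Without WNK463 replicate 2 the log2 fold change was -0.36 and passed (adjusted p = 0.028), and without a filter on low counts it passed at an adjusted p of 0.044.

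B2M (ENSG00000166710), on chromosome 15 and outside the MHC region, was also higher with WNK463. It had 732, 734 and 818 CPM in Ctrl and 1070.3, 1146 and 1133 CPM with WNK463. The lowest treated value was well above the highest untreated one. The log2 fold change was 0.55 ± 0.05 (SE, edgeR adjusted p = 2.2e-08), or 147% of Ctrl.

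The subunits of the peptide transporter moved in opposite directions. TAP1 had 46.2, 46.2 and 46.8 CPM in Ctrl and 54.8, 51.4 and 55.2 CPM with WNK463. TAP2 had 57.9, 69.5 and 69.0 CPM in Ctrl and 31.5, 33.9 and 31.9 CPM with WNK463. The 3 TAP1 values in Ctrl were nearly equal and lay below all treated ones, while all treated TAP2 values lay far below the untreated ones. The log2 fold change was 0.21 ± 0.06 for TAP1 (SE, edgeR adjusted p = 0.0047) and -1.01 ± 0.08 for TAP2 (adjusted p = 1.6e-09), which left TAP2 at 49.6% of Ctrl. Both genes lie in the same stretch of chromosome 6, TAP2 from 32821833 to 32838780 and TAP1 from 32845209 to 32853978 on GRCh38, on the minus strand. Another gene model (ENSG00000250264) overlaps TAP2 on the same strand, with 20 to 49 counts per sample and at most 8.45% of the TAP2 count. TAP1 overlaps PSMB9 on the opposite strand, and the strand setting of the counting is not given in the sources used here.

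TAPBP rose slightly. It had 148, 149.7 and 143 CPM in Ctrl and 174, 161 and 173 CPM with WNK463. The groups did not overlap, and the log2 fold change was 0.21 ± 0.05 (SE, edgeR adjusted p = 0.0012). When tested against a fold of 1.2 in place of no change, TAPBP (adjusted p = 0.81), TAP1 (0.72) and HLA-C (1) did not pass.

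NLRC5 had 71.5, 68.4 and 65.1 CPM in Ctrl and 67.2, 68.2 and 65.2 CPM with WNK463, and the groups overlapped. Its log2 fold change was -0.03 ± 0.06 (SE, edgeR adjusted p = 0.63), with a 95% confidence interval from -0.15 to 0.09. The sign depended on the scaling, and with scaling by total counts the value was 0.12 (adjusted p = 0.068). That scaling moved the median of all tested genes from 0.02 to 0.17.

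**Figure D2:**
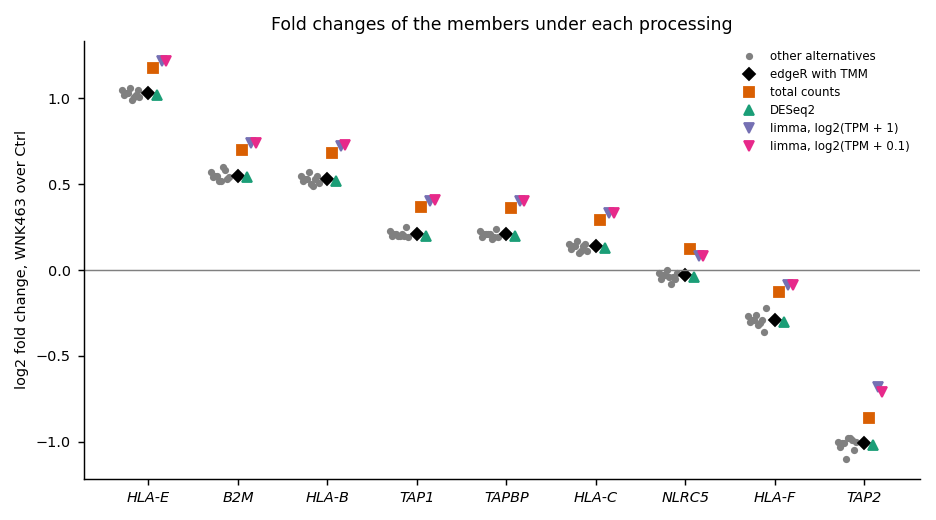
Log2 fold change of WNK463 over Ctrl (y axis) for each member under edgeR with TMM (black diamonds), scaling by total counts, DESeq2, limma on TPM and the other alternatives (grey points, which include each sample left out). HLA-E, B2M and HLA-B stay above 0 and TAP2 stays below 0 in all of them, while NLRC5 falls on both sides of 0 and scaling by total counts or TPM shifts all members upward.

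The deposited TPM values (transcripts scaled to a total of 1000000) correct for length and allow genes to be compared with each other. B2M was highest in both groups, at 1528 ± 105 TPM in Ctrl and 2547 ± 94.8 TPM with WNK463 (SD, n = 3 each). HLA-B followed with 927 ± 37.5 and 1532 ± 33.3 TPM, then HLA-E with 253 ± 10.01 and 592 ± 14.5 TPM, HLA-C with 150.2 ± 5.48 and 189 ± 3.94 TPM and TAPBP with 80.6 ± 2.02 and 107 ± 3.80 TPM. TAP1 had 32.7 ± 0.715 TPM in Ctrl and 43.4 ± 1.00 TPM with WNK463, and the values of neighbours in this order were separate down to TAP1 in both groups. NLRC5 (25.2 ± 3.48 TPM) and TAP2 (23.9 ± 1.55 TPM) overlapped in Ctrl. With WNK463, TAP2 (14.6 ± 1.02 TPM) lay below NLRC5 (26.6 ± 2.23 TPM) and overlapped with HLA-F (13.6 ± 1.5 TPM). The order of the mean levels was the same in both groups.

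Ratios of TPM within a sample do not depend on the scaling of the library. The TPM of HLA-B, HLA-C, HLA-E and HLA-F summed and divided by that of B2M was 0.970, 0.883 and 0.799 in Ctrl and 0.951, 0.868 and 0.924 with WNK463. The groups overlapped, and the log2 ratios differed by 0.05 between -0.18 ± 0.14 in Ctrl and -0.13 ± 0.07 with WNK463 (SD, n = 3 each, two-sided exact permutation test p = 0.70). Without Ctrl replicate 3 this difference was -0.02. Within the heavy chains, the ratio of HLA-E to HLA-B was 0.272, 0.267 and 0.282 in Ctrl and 0.393, 0.383 and 0.384 with WNK463. The ratio of TAP1 to TAP2 was 1.43, 1.36 and 1.31 in Ctrl and 3.05, 2.69 and 3.21 with WNK463, a log2 difference of 1.12. These last ratios were chosen after their values were seen. In both the groups were separate (exact two-sided permutation p = 0.10 each, the smallest that 3 samples against 3 allow). Because of how these ratios were chosen, this separation and its p-value are a description and no support.

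**Figure D3:**
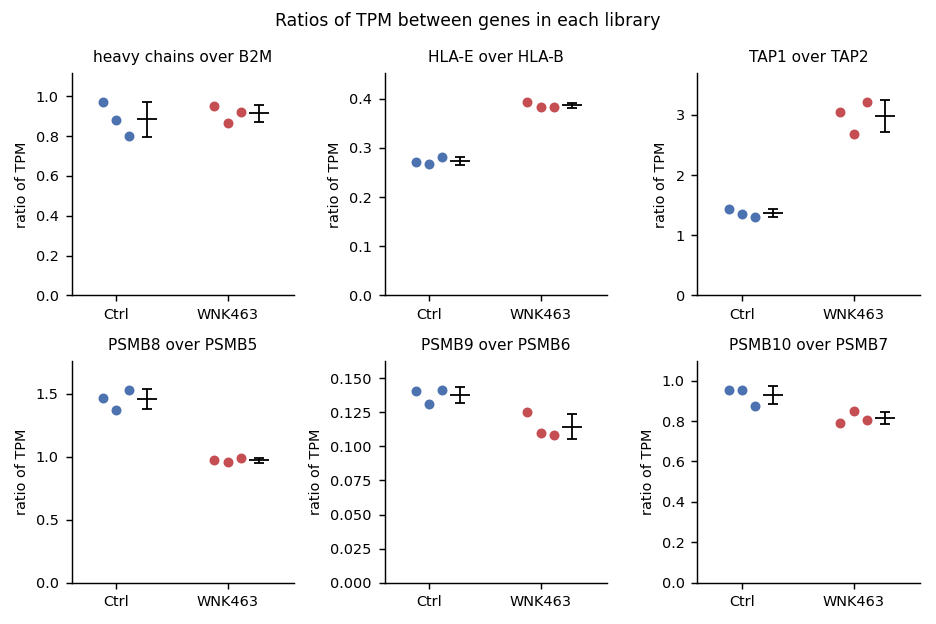
Ratio of TPM between genes (y axis, starting at 0) in the 3 Ctrl (blue) and 3 WNK463 (red) samples, with mean and SD as black bars; heavy chains are HLA-B, HLA-C, HLA-E and HLA-F summed. The heavy chain to B2M ratio overlaps between groups, the ratio of TAP1 to TAP2 is between 2.69 and 3.21 with WNK463 against 1.31 to 1.43 in Ctrl, and the 3 ratios of proteasome subunits are lower with WNK463.

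The genes that load and trim peptides were mostly lower. Of the 8 listed genes, 0 were higher, 7 were lower and 1 did not pass, with a median log2 fold change of -0.53. Among all tested genes, 35.5% were higher and 35.3% lower, with a median of 0.02. CALR encodes calreticulin, the chaperone of the loading complex, and fell from 1175 ± 33.0 to 512 ± 14.5 CPM (SD, n = 3 each), with a log2 fold change of -1.20 (edgeR adjusted p = 2e-13). PDIA3, which encodes the disulfide isomerase ERp57 of the same complex, fell from 501 ± 9.82 to 324 ± 9.42 CPM, a log2 fold change of -0.63. UGGT1, which marks misfolded glycoproteins for another round of folding, had -0.67. The aminopeptidase genes ERAP2 and ERAP1, whose products trim peptides in the endoplasmic reticulum, had log2 fold changes of -1.23 and -0.16. TAPBPL, which encodes the tapasin-related peptide editor, had -0.43. CANX, which encodes calnexin, had 1100.4 ± 4.87 CPM in Ctrl and 1056 ± 22.9 CPM with WNK463 and did not pass (adjusted p = 0.21). P4HB, which encodes another disulfide isomerase, had -0.29. ERAP1 (adjusted p = 0.033) lost its call in 10 of 14 alternatives, among them those without Ctrl replicate 1, Ctrl replicate 3, WNK463 replicate 2 or WNK463 replicate 3. TAPBPL and P4HB each lost theirs in 3 of 14, which were limma on TPM with either pseudocount and the test against a fold of 1.2. With scaling by total counts CANX was called higher, at 0.09, and 6 of the 8 genes were called lower.

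All 5 listed genes of the immunoproteasome were lower, as were 35.3% of all tested genes. PSMB8, PSMB9 and PSMB10 encode the catalytic subunits that replace those of the constitutive proteasome, and PSME1 and PSME2 encode its activator. PSMB8 had 101, 93.1 and 88.6 CPM in Ctrl and 47.5, 52.9 and 54.6 CPM with WNK463. All treated values were below the untreated ones, and the log2 fold change was -0.87 ± 0.07 (SE, edgeR adjusted p = 2.1e-09). The other 4 genes had log2 fold changes between -0.51 and -0.46. PSMB9 and PSMB8 lie beside TAP1 and TAP2 in the MHC region, and TAP1 was the only gene of these 4 that was higher. Of the 4 genes of the constitutive list, 3 were lower, with log2 fold changes of -0.30 for PSMB5, -0.27 for PSMB7 and -0.72 for PSME3, and PSMB6 did not pass (-0.11, adjusted p = 0.16).

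The ratio of each immunosubunit to the constitutive subunit whose place it takes was lower with WNK463 in all 3 pairs. PSMB8 over PSMB5 was 1.46, 1.37 and 1.53 in Ctrl and 0.971, 0.954 and 0.989 with WNK463, a log2 difference of -0.58. PSMB9 over PSMB6 differed by -0.27 and PSMB10 over PSMB7 by -0.19. The groups were separate in each pair (exact two-sided permutation p = 0.10 each, also after adjustment over the 3 ratios).

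**Figure D4:**
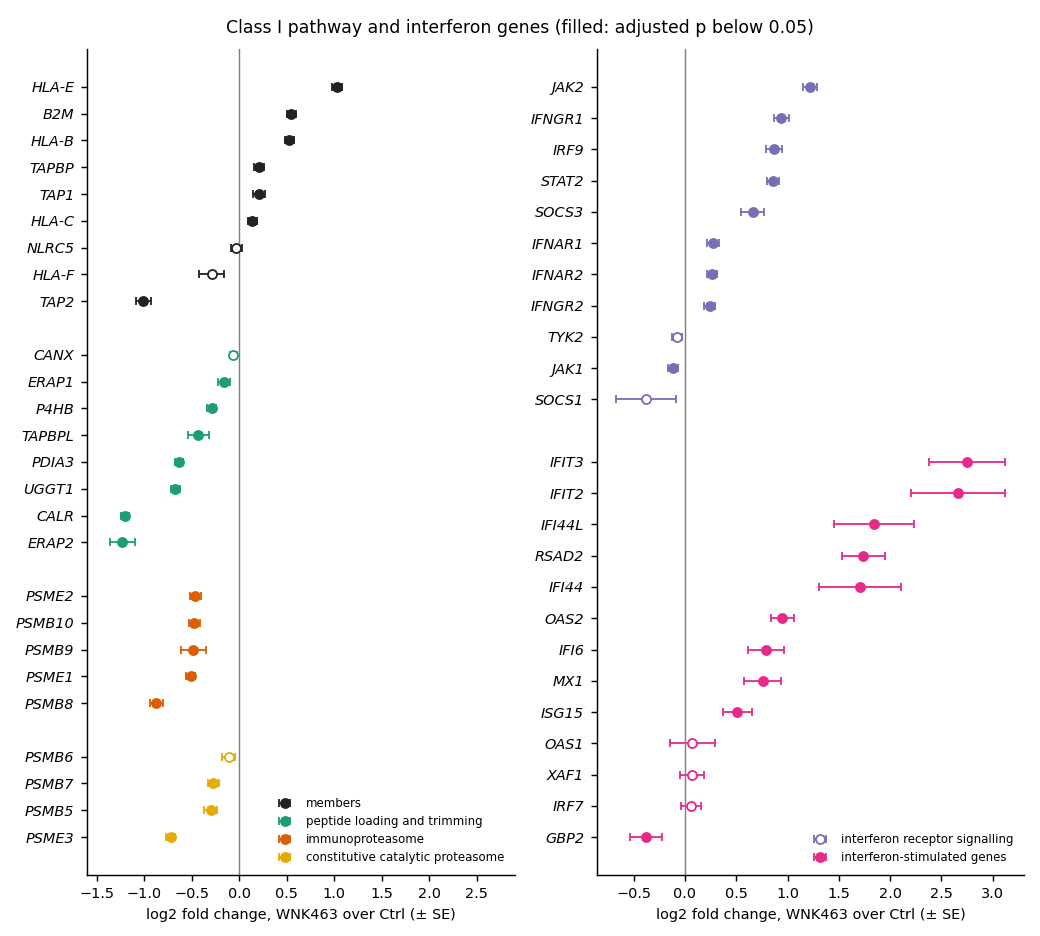
Log2 fold change of WNK463 over Ctrl with its standard error (x axis) for the members and the listed loading, proteasome and interferon genes; filled points passed an adjusted p of 0.05, and IFIT1, with 3 counts or fewer in each Ctrl sample, is left out. Of the 7 lower loading and trimming genes CALR and ERAP2 lie furthest left, the 5 immunoproteasome genes lie left of 0, and most interferon receptor and interferon-stimulated genes lie right of 0.

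Genes of the factors that act at class I promoters moved in both directions. Of 14 listed genes, 6 were higher, 5 lower and 3 did not pass, with a median log2 fold change of -0.04. These counts stand beside 35.5% higher and 35.3% lower among all tested genes. Of the RFX complex, with which NLRC5 acts, RFXANK was higher (0.33) and RFXAP lower (-0.49), while RFX5 had -0.03 (adjusted p = 0.63). The NF-kB genes split as well, with NFKB1 rising from 56.2 ± 1.64 to 82.0 ± 1.33 CPM and RELA falling from 118 ± 2.15 to 75.6 ± 2.43 CPM (SD, n = 3 each). CIITA, the class II counterpart of NLRC5, rose from 31.95 ± 2.55 to 58.9 ± 3.04 CPM, a log2 fold change of 0.88 (edgeR adjusted p = 5.2e-09). IRF8, a myeloid interferon regulatory factor, fell from 782 ± 10.7 to 465 ± 6.32 CPM, a log2 fold change of -0.75. ATF1 was higher at 0.31, and CREB1, which encodes an X2 box binding protein, was lower at -0.15 (adjusted p = 0.037). IRF1, which binds the interferon-stimulated response element of class I genes, had 0.21 (adjusted p = 0.032). The call was lost without Ctrl replicate 2, Ctrl replicate 3 or WNK463 replicate 3 for both IRF1 and CREB1, and for CREB1 also without WNK463 replicate 1 or WNK463 replicate 2.

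Interferon receptor signalling genes were mostly higher, with 8 of 11 higher, 1 lower and a median log2 fold change of 0.27. The shares over all tested genes were 35.5% higher and 35.3% lower. JAK2, the kinase of the interferon gamma receptor, had 34.1, 40.0 and 41.3 CPM in Ctrl and 85.5, 95.1 and 87.8 CPM with WNK463. The groups were far apart, and the log2 fold change was 1.22 (edgeR adjusted p = 7.2e-11). IFNGR1, which encodes its ligand-binding chain, had 0.94. STAT2 and IRF9, whose products act at the interferon-stimulated response element, had 0.86 and 0.87. SOCS3, a feedback inhibitor of this signalling, had 0.66. Its relative SOCS1 had -0.38 and did not pass (edgeR adjusted p = 0.25), nor did TYK2, at -0.08 (0.21). The lower gene was JAK1, which encodes a kinase shared by interferon receptors, with -0.12 (edgeR adjusted p = 0.035). This call was lost in 9 of 14 alternatives, among them those without Ctrl replicate 3, WNK463 replicate 2 or WNK463 replicate 3 (adjusted p = 0.086, 0.12 and 0.082), and the sign changed with total counts (0.03) and limma on TPM (0.07).

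Among 16 interferon-stimulated genes, 14 were tested, and 10 of these were higher, 1 lower and 3 did not pass. For comparison, 35.5% of all tested genes were higher and 35.3% lower. The median log2 fold change of the interferon-stimulated genes was 0.87, also with IFIT1 set to its bound. It was 0.52 with a minimum of 10 counts per sample and 1.25 with DESeq2. Levels were low. OAS2, which encodes a sensor of double-stranded RNA, rose from 15.9 ± 2.20 to 30.8 ± 3.51 CPM, and RSAD2, which encodes the antiviral enzyme viperin, from 2.78 ± 0.844 to 9.22 ± 1.87 CPM (SD, n = 3 each). IFIT3 rose from 0.343 ± 0.123 to 2.33 ± 0.137 CPM. Its relative IFIT1 had 0, 2 and 3 counts in Ctrl and 31, 22 and 17 counts with WNK463, so its fold change is not given. IFIT2, IFI44L and IFI44, likewise at low levels, were higher at 2.66, 1.84 and 1.71, and IFI6, MX1 and ISG15 at 0.79, 0.76 and 0.51. GBP2, which responds to interferon gamma, was lower (-0.38, adjusted p = 0.037). This call was lost in 11 of 14 alternatives, among them 5 of the 6 that leave out a sample, all but that without WNK463 replicate 2 (adjusted p = 0.051 to 0.11). GBP1 had 0 counts in 5 of the 6 samples. IRF7 and OAS1 did not pass, at 0.06 and 0.07.

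Genes listed for class I surface turnover or repression were also split, with 4 of 9 tested genes higher and 4 lower. Of all tested genes, 35.5% were higher and 35.3% lower. The list is broad, and an effect of each gene on class I was not tested here. SUSD6, whose product takes class I molecules to degradation together with TMEM127 and WWP2, had 46.5, 47.5 and 47.0 CPM in Ctrl and 93.4, 92.4 and 104 CPM with WNK463. The groups were far apart, with a log2 fold change of 1.04 (edgeR adjusted p = 7.1e-11). TMEM127 was higher at 0.45, while WWP2, the ubiquitin ligase of the group, was lower at -0.43. The ubiquitin ligase genes MARCHF8 and MARCHF9 were higher at 0.68 and 0.80. EZH2, EED and SUZ12, the core of the Polycomb complex PRC2, were lower at -0.60, -0.21 and -0.27. EED (adjusted p = 0.044) lost its call in 12 of 14 alternatives, among them 5 of the 6 that leave out a sample, all but that without Ctrl replicate 2.

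Of 10 class I-like genes 6 were tested, and 2 were higher and 3 lower, against 35.5% and 35.3% of all tested genes. FCGRT, which encodes the heavy chain of the neonatal Fc receptor, and CD1D, which presents lipids, both need β2-microglobulin and were higher at 0.79 and 0.63. MR1, which presents vitamin metabolites and also binds β2-microglobulin, was lower at -0.26. Of the ligands of the NK receptor NKG2D, MICB fell from 22.4 ± 1.99 to 15.6 ± 2.15 CPM (SD, n = 3 each) and ULBP3 from 1.496 ± 0.477 to 0.492 ± 0.206 CPM, while MICA had 0.21 and did not pass (adjusted p = 0.41).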

How the data were processed

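RNA was taken from 3 Ctrl and 3 WNK463 samples, and groups were taken from the sample titles. The authors deposited estimated counts per gene as whole numbers, not normalized, and TPM values, which sum to 1000000 per sample. The submitters' processing notes name fastp, Bowtie2, HISAT2, StringTie, RSEM, DESeq2, edgeR and GRCh38, without roles. The annotation and strand setting are not given in the sources used here. The table also holds the authors' group mean TPM (a signal that replaces 0 by a small value), the log2 ratio of these means and p-values with their adjustment, as deposited by the authors; none were used.

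Expected counts were used as deposited and tested with edgeR 4.0.16 in R 4.3.3, with TMM factors, filterByExpr and the quasi-likelihood test, without a block for the replicate number. The size of a log2 fold change over the root of its F value gave the SE. On simulated data for WNK463 against Ctrl, with 200 of 11934 tested genes changed, edgeR recovered 200 with 11 false calls. In the samples themselves 70.8% of tested genes passed, and recovery at such a share was not tested. Ratios used two-sided exact permutation tests. Alternatives were scaling by total counts, DESeq2 1.42.0, other filters, glmTreat, limma 3.58.1 on log2(TPM + 1) and log2(TPM + 0.1), the replicate number as a block, and each sample left out.

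The members and gene lists were chosen with earlier results of these data known, so lists are described by counts and medians. All members were named. From each list the text named genes past a log2 fold change of 1 with groups that did not overlap, up to 4 others per direction with the smallest p and up to 2 that did not pass. ERAP1, PSMB9, IRF1, GBP1, PAX5 and 1 of HLA-DPA1, HLA-DPB1 and HLA-DMA fall outside this rule and were chosen after their values were seen. Common dispersion corresponded to 5.21% variation between replicates, and each pair of replicates of a group differed by more than counting noise (chi-square over its degrees of freedom, 2.62 to 7.23). Samples with the same number did not deviate together, as sensitivity values below show. Gene positions are from GENCODE 29, and promoters from RefSeq. A gene of the interferon receptor signalling list is not reported here.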

Additional observations from a re-analysis of the deposited data

How the results depend on the processing

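HLA-B, HLA-E, B2M and TAP2 passed in their direction under each of 14 alternatives, with log2 fold changes from 0.49 to 0.73, 0.99 to 1.22, 0.52 to 0.74 and -1.10 to -0.68. HLA-C lost its call in 7 of 14, and TAP1 and TAPBP only under the test against a fold of 1.2. NLRC5 changed sign with total counts (0.12) and with limma on TPM (0.08 with either pseudocount), and the sum of heavy chains over B2M did so without Ctrl replicate 3 (-0.02). HLA-F passed in 2 of 14. Replicate numbers were not taken to pair samples, since the deviations of same-numbered samples correlated at 0.02, -0.01 and -0.05 over 11973 genes. With the replicate block, 4223 genes were higher and 4175 lower in place of 4251 and 4222, 6 members were higher and 1 lower, and 0 interferon receptor signalling genes and 0 interferon-stimulated genes were lower, in place of 1 each.

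The members' median was 0.36 with total counts and 0.40 with limma on TPM under either pseudocount, against 0.21 with TMM. Without a filter 2 members were lower, and against a fold of 1.2 only 3 were higher. Leaving out each sample gave 5 to 6 members higher, 1 to 2 lower and a median of 0.18 to 0.24. Limma on TPM called 2658 genes lower with a pseudocount of 1 and 2646 with 0.1. With total counts, 5525 genes were higher and 3123 lower, a share of 63.9% higher against 50.2% with TMM, and limma gave 65.2%.

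Of the loading and trimming genes, 1 was higher with total counts, and 4 were lower with limma and against a fold of 1.2. Of the immunoproteasome, 3 were lower with limma, and of the constitutive list 1 was lower with total counts, limma or a fold of 1.2. PSMB9 over PSMB6 differed by -0.37 in CPM. Of the promoter factors, 3 were lower with total counts, with a minimum of 10 counts per sample, with limma and against a fold of 1.2, where 2 were higher. Of interferon receptor genes, 0 were lower with total counts, with at least 10 counts, with limma and against a fold of 1.2 (5 higher). Of interferon-stimulated genes, 0 were lower with total counts, DESeq2, limma or a fold of 1.2, and 5 were higher with at least 10 counts. Of the turnover list, 2 were lower with total counts, limma or a fold of 1.2, and 3 with DESeq2, at least 10 counts or the replicate block. Over all alternatives, medians ran from -0.57 to -0.38 for loading and trimming, -0.06 to 0.15 for promoter factors, 0.24 to 0.42 for interferon receptor genes and 0.52 to 1.25 for interferon-stimulated genes. The fits without 1 sample gave 3 to 5 promoter factors lower, 0 to 1 interferon receptor gene lower and 0 to 1 interferon-stimulated gene lower.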

Other observations

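MHC class II molecules present peptides from outside the cell. Of 7 tested class II genes, 3 were higher, 1 was lower and 3 did not pass. Of all tested genes 35.5% were higher and 35.3% lower. The median log2 fold change of the class II genes was 0.33, and 0.65 and 0.68 with limma on TPM. CD74, which encodes the invariant chain that guides class II molecules, had 399, 390.0 and 387 CPM in Ctrl and 708, 651 and 669 CPM with WNK463, a log2 fold change of 0.79. HLA-DRA rose from 33.7 ± 1.71 to 47.4 ± 1.80 CPM and HLA-DMB, an editor of class II peptides, from 0.467 ± 0.0705 to 1.88 ± 0.378 CPM (SD, n = 3 each). CTSS, which encodes the protease cathepsin S that cuts the invariant chain, fell from 41.6 ± 1.09 to 22.9 ± 1.03 CPM, a log2 fold change of -0.86. Levels of HLA-DPA1, HLA-DPB1 and HLA-DMA overlapped between groups.

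The table's own KEGG annotation for antigen processing and presentation covers 69 genes, of which 47 were tested. Of these, 15 were higher and 17 lower, against 35.5% and 35.3% of all tested genes. Without the members 9 of 39 were higher and 16 lower, with a median log2 fold change of -0.07.

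The genes whose log2 CPM was most like that of B2M over the 6 samples were GET1, VCPIP1, MOB1B, UBE2D1 and ZNF451, each with a Pearson's r of 0.999. This is a description over samples that fall into 2 groups, and 1726 genes (14.4%) had an r above 0.95. HLA-E had 0.968 and HLA-B 0.943, while TAP2 had -0.940.

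The effective length implied by the count and TPM of a gene moved by -0.13 on the log2 scale for TAP2 and also for PSMB9 with WNK463. It moved by -0.03 for TAP1 and for PSMB6. The log2 ratio of PSMB9 to PSMB6 differed by -0.27 in TPM and by -0.37 in CPM. The middle 95% of genes above 5 TPM in every sample ranged from -0.16 to 0.21.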
